A study of Mus musculus with 24 samples.

Results

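Chemokines are small secreted proteins, grouped as CC, CXC, C or CX3C by the spacing of their first cysteines, that direct leukocytes and other cells along a gradient. They signal through G protein-coupled receptors of the Ccr, Cxcr, Xcr and Cx3cr families, while the atypical receptors (Ackr) bind and remove chemokines without signaling through G proteins. In the injured central nervous system, glia, endothelium and infiltrating myeloid cells are known sources of these ligands.

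The genes described here are the chemokine and chemokine receptor genes whose mouse symbol is Ccl, Cxcl, Ccr, Cxcr or Ackr followed by a number, Xcl1 or Cx3cl1. The deposited table of 21965 genes lists 58 of them, and 48 had a sum of at least 10 counts over all libraries, among 17167 genes that reached this minimum and were tested. Of the other 10, Ccl20, Ccl21a, Ccl21b and Ccl27b had 0 counts and Ccr1l1, Ccr4, Ccr6, Ccr8, Cxcl15 and Cxcl17 had 1 to 9 counts in all, and they are not described further.

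The study examined RNA on the ribosomes of mature oligodendrocytes (OLs) after spinal cord injury (SCI), with total spinal cord RNA as the input. It used OL-Ribotag mice, described as female, in which a tamoxifen-induced Cre directed to OLs switches on an HA-tagged ribosomal protein Rpl22, and the tag is not limited to OLs where other cells recombine, since this Cre is also active in Schwann cells. Tissue was naive (uninjured) or taken 2, 10 or 42 days post-injury (dpi) after a T9 contusion of 50 kdyn, and the labels give an age of 10 to 12 weeks. The study's methods give a younger age at injury and its account an older one at collection for naive and dpi 42 tissue, so the tissue groups may differ in age. Each of these 4 tissue groups had 3 pools, every one from 2 mice. Total RNA and anti-HA precipitated RNA (called OL below) of a pool were sequenced apart, so each of the 8 groups has n = 3. All mice, naive ones included, carried both alleles.

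Libraries held 25840127 to 32987841 counts on genes. Labels of 2 dpi 42 libraries, total RNA library 2 and OL library 1, conflict on the kind of RNA, and their groups follow the column names. The summed level of 7 OL markers was 73242 CPM in this OL library, against 70576 to 95409 in the other 11, and 16819 CPM in this total RNA library, against 14821 to 18647 in the other 11. Both libraries of dpi 2 pool 2 held 2414 and 2604 counts on 4 Y-linked genes, against at most 13 in the other 22 libraries, which goes against the description of all mice as female. Values of the 3 libraries of a group are given by library number. On dpi 42, total RNA libraries 1 and 2 came from pools 2 and 1, and OL libraries 1 and 2 from pools 1 and 2. Myeloid markers (8 genes, among them Itgam, Aif1 and Cd68) rose after SCI, all 8 in total RNA at each time and 7, 8 and 8 of them in OL on dpi 2, 10 and 42. Their summed level in total RNA was 158, 131 and 132 CPM (counts scaled to the library size) before injury, 1277, 1387 and 1122 at dpi 2, 3881, 4430 and 3247 at dpi 10 and 2520, 1837 and 2815 at dpi 42. In OL it was 13.4, 8.12 and 11.3 CPM before injury, 62.9, 83.7 and 78.6 at dpi 2, 204, 235 and 217 at dpi 10 and 159, 131 and 217 at dpi 42. The 8 OL markers had a median level in OL of 651% of that in total RNA in naive tissue and 600% to 630% after SCI. In bulk tissue, fewer cells of a type and less RNA per cell cannot be told apart, and this holds for every change below.

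Levels below are CPM after TMM scaling, and 3 counts, the floor used for a gene that is hardly detected, equal 0.0840 to 0.127 CPM. Changes are log2 fold changes (Log2FC) from edgeR's quasi-likelihood test with their standard error (SE), and q is its p-value adjusted over all 17167 genes by the Benjamini-Hochberg method. A gene was called changed when the Log2FC passed 1, and OL enriched or OL depleted when OL against total RNA passed 0.5, each with q below 0.05. Where every library of the lower group was at or below 3 counts, a lower bound of the fold stands in place of the Log2FC.

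Much of the family rose in total RNA after SCI. On dpi 2, 20 of the 48 genes rose and 10.0% of all genes tested did so. On dpi 10, 22 rose against 9.20% of all genes, and on dpi 42, 17 rose against 6.66% of all genes. The median Log2FC of the 48 genes in total RNA was 2.96, 3.63 and 3.32 at these times, or 2.03, 2.77 and 1.89 with genes at the floor set to their bound, where the median of all genes lay between -0.10 and -0.08. Cx3cl1 alone fell, on dpi 2 (6.33% of all genes fell). No member fell in total RNA on dpi 10 (3.07% of all genes) or dpi 42 (0.798% of all genes): edgeR gave 2 and 0 lower members at an unadjusted p under 0.05 and DESeq2 called 0 at both times.

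In OL, 13 of the 48 genes rose on dpi 2 (10.2% of all genes), 13 on dpi 10 (6.82%) and 16 on dpi 42 (8.54%). A group at the floor entered 8, 6 and 7 of these calls. The median Log2FC of the 48 genes in OL was 0.82, 0.83 and 1.78, or 1.10, 1.23 and 1.68 with genes at the floor set to their bound, and that of all genes was 0. Ackr4 fell in OL on dpi 2 (6.85% of all genes fell), and no member fell in OL on dpi 10 (1.26%) or dpi 42 (4.08%), where edgeR gave 0 lower members at an unadjusted p under 0.05 and DESeq2 called 0. The 16 genes that rose in total RNA at all 3 times were Ccl2, Ccl3, Ccl4, Ccl5, Ccl6, Ccl7, Ccl8, Ccl9, Ccl12, Ccr1, Ccr2, Cxcl2, Cxcl9, Cxcl10, Cxcl16 and Cxcr4. In OL, 8 genes rose at all 3 times, namely Ccl2, Ccl3, Ccl4, Ccl6, Ccl9, Ccr2, Cxcl12 and Cxcr4. With only the groups compared in the fit, the OL counts were 8, 7 and 7 on dpi 2, 10 and 42 (7.74%, 4.79% and 4.91% of all genes), and 4 genes rose at all 3 times, Ccl3, Ccl4, Cxcl12 and Cxcr4. The OL calls lost in this fit included Ccl7, Ccl12, Ccr2 and Cxcl2 on dpi 2, Ccl2, Ccl5, Ccl6, Ccl9, Ccl12 and Cxcl9 on dpi 10, and Ackr3, Ccl6, Ccl8, Ccl9, Ccl11, Ccr2, Cx3cl1 and Cxcl9 on dpi 42. In total RNA the same fit lost Cxcl9 on dpi 2, and the rises it called in addition included Ackr3, Ccl24 and Cxcl1 on dpi 2, Ackr3, Ccl11, Ccl19, Cxcl1, Cxcl5 and Cxcr2 on dpi 10, and Ackr3, Ccl11, Ccl22, Cxcr3, Cxcr6 and Xcl1 on dpi 42.

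**Figure D1:**
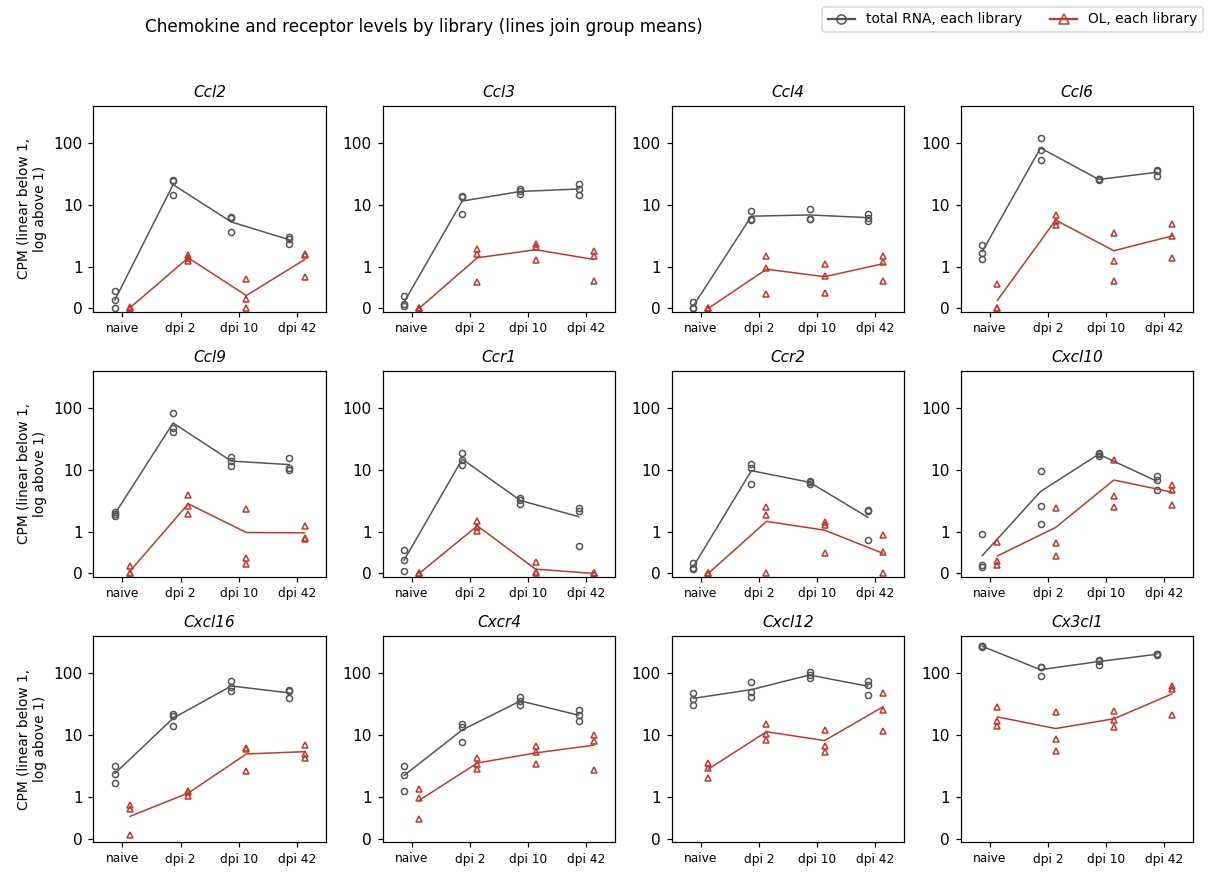
Level of 12 chemokine and receptor genes in each library (CPM, axis linear below 1 and log above 1), with circles for total RNA and triangles for OL in naive tissue and on dpi 2, 10 and 42, and lines joining the means of 3 libraries. Ccl2, Ccl6, Ccl9, Ccr1 and Ccr2 have their highest total RNA mean on dpi 2, and Cxcl10, Cxcl16, Cxcr4 and Cxcl12 on dpi 10.

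Per kilobase of exon, Cx3cl1 stood first in naive total RNA at 69.7 ± 1.88 CPM per kb (SD, n = 3), Cxcl14 second at 50.1 ± 1.82 and Ackr1 next at 19.7 ± 0.904. On dpi 2, Ccl6 led at 46.7 ± 19.2 CPM per kb, and its spread covered the levels of Cxcl14, 34.8 ± 4.76, and Cx3cl1, 29.3 ± 5.58. On dpi 10 Cxcl14 at 40.0 ± 1.52 and Cx3cl1 at 39.7 ± 3.71 did not differ beyond their spread, nor did Cxcl14 at 54.2 ± 5.24 and Cx3cl1 at 51.9 ± 1.05 CPM per kb on dpi 42. In all 4 OL groups Cxcl14 had the highest mean and Cx3cl1 the second, with wide spreads. Cxcl14 in naive OL, 27.2 ± 33.8 CPM per kb, rested on library 3. In OL on dpi 2, Cx3cl1 at 3.28 ± 2.53 CPM per kb did not differ beyond the spread from several genes. Among them were Ccl6 at 3.20 ± 0.601, Ackr1 at 2.97 ± 2.00 and Cxcr4 at 1.98 ± 0.393. On dpi 10 the spread of Cx3cl1, 4.70 ± 1.35, met those of Cxcl10, 3.08 ± 2.88, and Cxcr4, 2.88 ± 0.935. In naive total RNA 13 of the 48 genes averaged over 1 CPM, and 29, 29 and 24 did so on dpi 2, 10 and 42. In OL 7 genes did so in naive tissue and 17, 15 and 16 after SCI.

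Ligands of Ccr2, which recruit inflammatory monocytes, include Ccl2, Ccl7 and Ccl12. They lie with Ccl8, Ccl11 and Ccl1 in 1 cluster on chromosome 11 (GENCODE M21, GRCm38, with Ccl2 at chr11:82035571-82037453). Ccl2 in total RNA stood at 0, 0.193 and 0.412 CPM before injury, 24.1, 25.6 and 14.7 at dpi 2, 3.62, 6.11 and 6.34 at dpi 10 and 2.38, 2.79 and 3.1 at dpi 42. OL libraries held 0, 0 and 0.0382 CPM before injury, 1.59, 1.38 and 1.26 at dpi 2, 0.699, 0.228 and 0 at dpi 10 and 0.769, 1.61 and 1.57 at dpi 42. All injured total RNA libraries lay above all naive ones, with the highest values on dpi 2. In total RNA the Log2FC was 6.70 ± 0.86 (SE, q = 3.21e-06) on dpi 2, 4.69 ± 0.805 (SE, q = 0.000116) on dpi 10 and 3.74 ± 0.786 (SE, q = 0.00149) on dpi 42. In OL, Ccl2 was at least 11.5-fold higher on dpi 2 and at least 10.7-fold higher on dpi 42 than in naive tissue, and at least 2.52-fold higher on dpi 10, where leaving out any 1 of 3 libraries ended the call (q up to 0.234).

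Ccl7 was likewise highest on dpi 2, at 0, 0.0645 and 0.127 CPM before injury, 13.3, 12.4 and 5.05 at dpi 2, 1.93, 1.27 and 3.18 at dpi 10 and 0.487, 1.98 and 1.14 at dpi 42 in total RNA. Its Log2FC there was 7.23 ± 1.43 (SE, q = 0.000502) on dpi 2, 4.96 ± 1.34 (SE, q = 0.00742) on dpi 10 and 4.14 ± 1.32 (SE, q = 0.029) on dpi 42 (the last lost without any 1 of 5 libraries, q up to 0.108). The OL levels of Ccl7 were 0, 0 and 0 CPM before injury, 0.151, 1.62 and 0.497 at dpi 2, 0.388, 0 and 0 at dpi 10 and 0, 0.224 and 0 at dpi 42, and the called rise in OL was on dpi 2, of at least 6.17-fold. Ccl12 stood at 0, 0.129 and 0.19 CPM before injury, 8.82, 12.4 and 11.2 at dpi 2, 2.4, 4.58 and 3.7 at dpi 10 and 3.38, 3.9 and 3.27 at dpi 42 in total RNA. The OL level was 0, 0 and 0 CPM before injury, 0, 0.608 and 0.383 at dpi 2, 0.155, 0.266 and 1.03 at dpi 10 and 0, 0.747 and 0 at dpi 42. Ccl12 rose in total RNA by 6.60 ± 1.33 (SE, q = 0.000573) on dpi 2, 5.00 ± 1.26 (SE, q = 0.00457) on dpi 10 and 4.99 ± 1.26 (SE, q = 0.00732) on dpi 42 on the log2 scale, and in OL by at least 2.69-fold on dpi 2 and 3.94-fold on dpi 10. Both OL calls were lost when 1 of several libraries was left out (q up to 0.0972 and 0.13). Ccl8 had no count in naive tissue and was at least 3.31-fold, 15.8-fold and 16.8-fold higher in total RNA on dpi 2, 10 and 42. The dpi 2 call rested on 2 libraries with counts and was lost without any 1 of 4 libraries (q up to 0.0713). In OL, Ccl8 had counts on dpi 42, 0.629, 0.523 and 0 CPM, at least 3.13-fold above naive tissue. This call was lost without any 1 of 5 libraries (q up to 0.081) and without the 2 libraries with conflicting labels (q = 0.0952).

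Ccl3, Ccl4, Ccl5, Ccl6 and Ccl9 attract monocytes, macrophages and T cells, and form the second cluster of chromosome 11 (Ccl3 at chr11:83647844-83649355). All 5 rose in total RNA at every time. Ccl3 stood at 0.0656, 0.29 and 0.0951 CPM before injury, 14.2, 13.4 and 7.32 at dpi 2, 17.9, 15.1 and 16.9 at dpi 10 and 21.8, 14.5 and 18.4 at dpi 42 in total RNA. OL levels were 0, 0 and 0 CPM before injury, 0.643, 1.98 and 1.61 at dpi 2, 2.33, 1.29 and 2.09 at dpi 10 and 1.82, 0.672 and 1.49 at dpi 42. It stayed high to dpi 42, with a Log2FC in total RNA of 6.24 ± 0.569 (SE, q = 1.01e-07), 6.75 ± 0.578 (SE, q = 5.94e-08) and 6.88 ± 0.58 (SE, q = 9.12e-08) on dpi 2, 10 and 42. In OL, where no naive library had a count, Ccl3 was at least 11.5-fold, 15.5-fold and 10.8-fold higher. Ccl4 stood at 0, 0.161 and 0 CPM before injury, 8.12, 5.98 and 5.77 at dpi 2, 5.93, 8.82 and 6.08 at dpi 10 and 7.1, 5.63 and 6.12 at dpi 42 in total RNA. OL levels were 0, 0 and 0 CPM before injury, 0.34, 0.972 and 1.53 at dpi 2, 0.777, 0.38 and 1.14 at dpi 10 and 1.19, 1.53 and 0.665 at dpi 42. Its total RNA Log2FC was 6.84 ± 0.863 (SE, q = 4.42e-06), 6.91 ± 0.865 (SE, q = 6e-06) and 6.76 ± 0.862 (SE, q = 1.47e-05), and its OL level was at least 7.73-fold, 6.25-fold and 9.2-fold higher.

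Ccl6 had the highest mean CPM of the CC ligands in total RNA on dpi 2, 10 and 42. Per kilobase of exon, Ccl3 stood above it on dpi 10 and 42. Levels of Ccl6 in total RNA were 2.3, 1.71 and 1.36 CPM before injury, 77.8, 121 and 52.8 at dpi 2, 25.1, 26.5 and 26.4 at dpi 10 and 35, 29.2 and 37.5 at dpi 42. Its OL values were 0.588, 0 and 0 CPM before injury, 5.59, 6.89 and 4.74 at dpi 2, 0.66, 1.26 and 3.58 at dpi 10 and 4.93, 1.42 and 3.17 at dpi 42. Injured libraries lay above naive ones in both kinds of RNA. The Log2FC in total RNA was 5.55 ± 0.617 (SE, q = 5.46e-07) on dpi 2, 3.86 ± 0.578 (SE, q = 2.75e-05) on dpi 10 and 4.24 ± 0.586 (SE, q = 2.19e-05) on dpi 42, and in OL it was 4.88 ± 0.749 (SE, q = 2.38e-05), 3.23 ± 0.789 (SE, q = 0.00635) and 4.02 ± 0.763 (SE, q = 0.000353). The dpi 10 call in OL was lost without dpi 10 OL library 3 (q = 0.0694), and with only the groups compared the OL calls of Ccl6 on dpi 10 (q = 0.177) and dpi 42 (q = 0.0845) were lost. Ccl9 had 2, 2.1 and 1.84 CPM before injury, 47.4, 84.5 and 42.2 at dpi 2, 11.7, 16.4 and 14.1 at dpi 10 and 10.9, 10.1 and 16 at dpi 42 in total RNA, highest on dpi 2. Its OL values were 0.168, 0 and 0 CPM before injury, 2.65, 3.97 and 1.99 at dpi 2, 0.233, 0.38 and 2.36 at dpi 10 and 0.839, 0.859 and 1.25 at dpi 42. The Log2FC of Ccl9 in total RNA was 4.87 ± 0.586 (SE, q = 1.46e-06), 2.83 ± 0.542 (SE, q = 0.000354) and 2.64 ± 0.538 (SE, q = 0.00116). In OL it was 5.61 ± 0.846 (SE, q = 1.92e-05), 4.08 ± 0.913 (SE, q = 0.00319) and 4.07 ± 0.913 (SE, q = 0.00161), the dpi 10 call in OL again lost without dpi 10 OL library 3 (q = 0.0616) and both later OL calls of Ccl9 lost with only the groups compared (q = 0.133 and 0.107). Ccl5, which T cells also make, was highest on dpi 10, at 0, 0.161 and 0 CPM before injury, 1.62, 2.06 and 1.63 at dpi 2, 7.83, 7.01 and 6.19 at dpi 10 and 3.55, 4.29 and 4.18 at dpi 42 in total RNA. OL levels were 0.42, 0 and 0 CPM before injury, 0.302, 0.81 and 0 at dpi 2, 1.28, 1.64 and 1.37 at dpi 10 and 0.839, 0.523 and 0.978 at dpi 42. It rose in total RNA by 4.94 ± 1.2 (SE, q = 0.00253), 6.92 ± 1.27 (SE, q = 0.000229) and 6.11 ± 1.24 (SE, q = 0.00108), whereas in OL only the dpi 10 difference was called, 3.33 ± 1.11 (SE, q = 0.0399), and it was lost without any 1 of 12 libraries (q up to 0.135).

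Cxcl1, Cxcl2, Cxcl3 and Cxcl5 attract neutrophils through Cxcr2 and were low. Cxcl2 had no count in naive tissue and stood at 1.04, 1.56 and 0.877 CPM in total RNA at dpi 2, 0.86, 0.288 and 0.688 at dpi 10 and 0.286, 0.36 and 0.882 at dpi 42. It was at least 12-fold, 6.33-fold and 5.27-fold higher. In OL it had counts in 2 of 3 dpi 2 libraries, 0, 0.689 and 0.0765 CPM, a call of at least 2.08-fold that was lost without any 1 of 4 libraries (q up to 0.191). Cxcl3 was detected in all 3 total RNA libraries only on dpi 2, at 0.952, 1.5 and 0.967 CPM, at least 11.8-fold above naive tissue. The calls of Cxcl3 on dpi 2 and Cxcl2 on dpi 42 in total RNA were lost without any 1 of 4 and 4 libraries (q up to 0.0748 and 0.0634). Cxcl1 and Cxcl5 reached at most 2.96 and 2.94 CPM in a total RNA library and were not called at any time in the fit of all 8 groups. With only the groups compared, Cxcl1 rose in total RNA on dpi 2 (4.16, q = 0.0113) and dpi 10 (4.62, q = 0.000274) and Cxcl5 on dpi 10 (3.76, q = 3.7e-05).

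Promoter windows of Cxcl1, Cxcl2 and Cxcl3 are shown because each holds an NF-kB consensus motif at a like distance from the start site. Cxcl5 has no promoter in the source used and was not searched. The windows of 30 bases come from the RefSeq promoter table (GRCm38.p6, plus strand), 5′ to 3′, with the motif in capitals. The motif was searched on both strands in the 250 bases before each start site, and 7.25% of 32851 promoters of that length hold it.
Cxcl1 chr5:90891164-90891193: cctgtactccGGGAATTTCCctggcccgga
Cxcl2 chr5:90903792-90903821: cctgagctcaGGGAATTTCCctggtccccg
Cxcl3 chr5:90786018-90786047: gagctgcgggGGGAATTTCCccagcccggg
Of the 48 genes, 35 have a promoter in the table, and besides these 3 the motif was found in Ackr2, Ccl1, Ccl9, Ccr1, Ccr3 and Cxcl10. A match is a description of the letters and no evidence of binding.

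Cxcl9 and Cxcl10, interferon-induced ligands of Cxcr3 on T cells, lie side by side on chromosome 5 and both rose in total RNA at every time. Their promoters are shown with the interferon-stimulated response element (ISRE: GAAA, any 2 bases, GAAA) and the NF-kB consensus in capitals (RefSeq promoter table, GRCm38.p6, minus strand, 5′ to 3′, the 250 bases before the start site).
Cxcl10 chr5:92348890-92349139: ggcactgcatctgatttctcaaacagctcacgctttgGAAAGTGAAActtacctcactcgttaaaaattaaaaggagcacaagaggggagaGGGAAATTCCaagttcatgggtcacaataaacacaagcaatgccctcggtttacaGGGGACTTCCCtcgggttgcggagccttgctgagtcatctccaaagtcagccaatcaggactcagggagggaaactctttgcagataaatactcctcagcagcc
Cxcl9 chr5:92328080-92328329: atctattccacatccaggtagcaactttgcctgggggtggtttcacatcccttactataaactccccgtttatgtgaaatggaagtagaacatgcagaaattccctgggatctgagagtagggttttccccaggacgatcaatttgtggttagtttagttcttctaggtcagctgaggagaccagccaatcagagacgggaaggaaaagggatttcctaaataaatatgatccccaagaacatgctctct
The Cxcl10 promoter holds the ISRE letters, present on either strand in 2.98% of 32851 promoters and otherwise, among the members, in Ccl19 and Cxcl14, whereas neither motif is in this window of Cxcl9. Cxcl10 stood at 0.951, 0.193 and 0.158 CPM before injury, 9.6, 1.35 and 2.63 at dpi 2, 18.1, 19.3 and 17.1 at dpi 10 and 8.16, 4.88 and 6.89 at dpi 42 in total RNA. OL values were 0.21, 0.296 and 0.765 CPM before injury, 2.42, 0.729 and 0.421 at dpi 2, 3.88, 14.4 and 2.55 at dpi 10 and 4.82, 5.71 and 2.74 at dpi 42. Exons of Art3 on the opposite strand cover 5.91% of its exon length. Values were highest on dpi 10 in total RNA, while dpi 10 OL library 2 stood far above the other 2 OL libraries of that day. The Log2FC in total RNA was 3.38 ± 0.843 (SE, q = 0.00307), 5.38 ± 0.901 (SE, q = 9.15e-05) and 3.93 ± 0.856 (SE, q = 0.00204) on dpi 2, 10 and 42, and in OL 4.01 ± 0.87 (SE, q = 0.00257) on dpi 10 and 3.36 ± 0.856 (SE, q = 0.00445) on dpi 42. Cxcl9 had no count in naive tissue and 0.084, 0 and 0.726 CPM in total RNA at dpi 2, 2.34, 5.25 and 4.5 at dpi 10 and 0.83, 0.539 and 0.655 at dpi 42. It was at least 2.79-fold, 41.7-fold and 6.98-fold higher, with the dpi 2 and dpi 42 calls lost without single libraries (q up to 0.206 and 0.0584). In OL, Cxcl9 at 0.0777, 0.38 and 0.723 CPM on dpi 10 and 0, 0.709 and 0.47 on dpi 42 was at least 3.21-fold and 3.21-fold higher, calls lost without any 1 of 17 and 4 libraries (q up to 0.125 and 0.0775).

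Cxcl12, the ligand of Cxcr4 and Ackr3 that guides progenitor cells and leukocytes, lies at chr6:117168535-117181367. In total RNA it stood at 38.4, 31 and 49.2 CPM before injury, 50.6, 72 and 41.7 at dpi 2, 104, 93.7 and 85.3 at dpi 10 and 65.5, 44.5 and 76.4 at dpi 42. The OL libraries gave 2.02, 2.96 and 3.56 CPM before injury, 8.5, 10.5 and 15.3 at dpi 2, 5.48, 12.4 and 6.81 at dpi 10 and 48.6, 25.9 and 11.8 at dpi 42. Every injured OL library lay above every naive one, while in total RNA the injured and naive libraries overlapped on dpi 2 and dpi 42. The Log2FC in OL was 2.00 ± 0.416 (SE, q = 0.000605) on dpi 2, 1.53 ± 0.416 (SE, q = 0.0132) on dpi 10 and 3.33 ± 0.427 (SE, q = 6.37e-06) on dpi 42, and in total RNA only dpi 10 was called, 1.26 ± 0.376 (SE, q = 0.0134). The dpi 10 calls were lost without naive OL library 1 or dpi 10 OL library 2 in OL (q up to 0.0936) and without naive total RNA library 2 in total RNA (q = 0.0665). In total RNA the 6 fibroblast and pericyte markers summed to 151, 127 and 151 CPM before injury, 660, 836 and 465 at dpi 2, 1790, 1964 and 1777 at dpi 10 and 741, 509 and 776 at dpi 42, and 5, 5 and 4 of them rose. The 5 astrocyte markers summed in total RNA to 3362, 2929 and 2266 CPM before injury, 5532, 5602 and 5255 at dpi 2, 6056, 6452 and 5834 at dpi 10 and 6350, 4707 and 6165 at dpi 42. None of them was called higher in the fit of all 8 groups, though every injured library lay above every naive one in this sum. The part of fibroblast, pericyte and astrocyte RNA in the total RNA changes was not tested.

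Cxcr4, the signaling receptor of Cxcl12, stood at 3.21, 2.26 and 1.27 CPM before injury, 15.5, 13.4 and 7.8 at dpi 2, 31.2, 41.1 and 35.4 at dpi 10 and 21.5, 16.9 and 25.2 at dpi 42 in total RNA. OL levels were 0.462, 0.973 and 1.34 CPM before injury, 2.91, 3.48 and 4.32 at dpi 2, 5.48, 6.73 and 3.39 at dpi 10 and 9.96, 8.03 and 2.78 at dpi 42. In both kinds of RNA all injured libraries lay above the naive ones. Its Log2FC was 2.44 ± 0.43 (SE, q = 0.000111), 4.00 ± 0.454 (SE, q = 1.04e-06) and 3.24 ± 0.441 (SE, q = 1.86e-05) in total RNA and 1.94 ± 0.457 (SE, q = 0.00186), 2.48 ± 0.458 (SE, q = 0.000606) and 2.89 ± 0.46 (SE, q = 6.07e-05) in OL. Ackr3, the atypical receptor that scavenges Cxcl12, stood at 6.07, 7.42 and 6.24 CPM before injury, 22.5, 22.6 and 11.4 at dpi 2, 13.6, 14.3 and 16.3 at dpi 10 and 15.6, 14.1 and 18.7 at dpi 42 in total RNA, where all injured libraries lay above the naive ones. No difference was called in the fit of all 8 groups, but with only the groups compared Ackr3 rose in total RNA by 1.64 (q = 0.000218), 1.31 (q = 3.38e-06) and 1.41 (q = 6.03e-05) on dpi 2, 10 and 42. Its level in OL was 1.09, 0.677 and 4.21 CPM before injury, 6.43, 1.58 and 9.87 at dpi 2, 2.8, 6.73 and 3.35 at dpi 10 and 20.7, 13.9 and 3.29 at dpi 42. OL values spread widely within each group, and the groups overlapped. Only dpi 42 was called in OL, 2.65 ± 0.66 (SE, q = 0.00372), a call lost with only the groups compared (2.67, q = 0.0695).

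Cxcl16, a membrane-bound ligand of Cxcr6 and a scavenger receptor, lies at chr11:70453983-70459984 and stood at 3.21, 1.71 and 2.35 CPM before injury, 20.2, 22.4 and 14.1 at dpi 2, 60.3, 76.2 and 51.6 at dpi 10 and 51.5, 40.6 and 53.2 at dpi 42 in total RNA. OL libraries held 0.084, 0.804 and 0.727 CPM before injury, 1.21, 1.26 and 1.03 at dpi 2, 2.64, 6.28 and 6.09 at dpi 10 and 6.99, 4.29 and 5.05 at dpi 42. Injured libraries lay above naive ones in both kinds of RNA. The Log2FC was 2.96 ± 0.379 (SE, q = 3.09e-06), 4.69 ± 0.404 (SE, q = 2.47e-08) and 4.32 ± 0.398 (SE, q = 1.22e-07) in total RNA, and in OL 3.20 ± 0.439 (SE, q = 2.51e-05) on dpi 10 and 3.32 ± 0.438 (SE, q = 8.73e-06) on dpi 42. Exons of Zmynd15 on the opposite strand cover 18.3% of its exon length, and the strand setting of the counting is not given in the sources used here.

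Cx3cl1, the neuronal ligand of the microglial receptor Cx3cr1, lies at chr8:94772009-94782427. It stood at 265, 277 and 279 CPM before injury, 127, 89.7 and 128 at dpi 2, 167, 139 and 161 at dpi 10 and 199, 206 and 207 at dpi 42 in total RNA. The OL level was 17.3, 13.9 and 28.3 CPM before injury, 8.73, 5.67 and 24.2 at dpi 2, 13.8, 24.3 and 17.4 at dpi 10 and 63.6, 55.3 and 21.1 at dpi 42. All injured total RNA libraries lay below all naive ones, whereas the OL groups overlapped. Cx3cl1 fell in total RNA on dpi 2, by a Log2FC of -1.25 ± 0.389 (SE, q = 0.0145). The call was lost without dpi 2 total RNA library 2 (q = 0.0725). The summed level of 5 neuron markers in total RNA was 7274, 7707 and 7334 CPM before injury, 3495, 2933 and 3846 at dpi 2, 3369, 3135 and 3590 at dpi 10 and 4114, 5914 and 3890 at dpi 42, and its part in the Cx3cl1 level was not tested. In OL, Cx3cl1 rose on dpi 42, 1.24 ± 0.397 (SE, q = 0.0204). This call was lost without any 1 of 4 libraries (q up to 0.13) and without the 2 libraries with conflicting labels (0.947, q = 0.127). Cxcl14 stood at 94.1, 92.6 and 87.7 CPM before injury, 54.2, 71.3 and 65.3 at dpi 2, 69.9, 75.1 and 74 at dpi 10 and 95.9, 110 and 91.3 at dpi 42 in total RNA. Its OL values were 14.1, 13.8 and 121 CPM before injury, 29.6, 26.2 and 81.8 at dpi 2, 14.9, 40.6 and 23.2 at dpi 10 and 107, 87.3 and 18.1 at dpi 42. It was not called at any time, and single OL libraries of 1 group differed more than the groups did.

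The OL levels of 6 of the 48 genes, Cxcl14, Cx3cl1, Ackr3, Cxcl12, Cxcr4 and Ccl27a, were highest in the libraries highest in astrocyte markers, named next. So were 7.01% of all genes tested. The pattern is not limited to these genes, and their count was not tested against that share. The 5 astrocyte markers (Gfap, Aqp4, Slc1a3, Aldh1l1 and Gja1) summed in OL to 983, 791 and 4488 CPM before injury, 2245, 817 and 6585 at dpi 2, 1686, 5293 and 2109 at dpi 10 and 10867, 8622 and 1655 at dpi 42. The highest sums, in naive library 3, dpi 2 library 3, dpi 10 library 2 and dpi 42 libraries 1 and 2, coincided with the highest level of each of the 6 genes in each group. Without these 5 OL libraries, dpi 42 is left with OL library 3 alone, which is assumed to vary like the other groups. The rise of Cx3cl1 in OL on dpi 42 was then 0.42, that of Ackr3 1.87, that of Cxcr4 1.93 and that of Cxcl12 2.22. These genes were chosen as highest in the libraries left out, so their lower dpi 42 levels were set in advance and test no cause. Other markers moved in OL as well. The 6 fibroblast and pericyte markers summed in OL to 62.8, 50.9 and 90.1 CPM before injury, 219, 258 and 198 at dpi 2, 489, 467 and 438 at dpi 10 and 229, 206 and 240 at dpi 42, and 5, 4 and 5 of them rose. Much of this sum was Col1a2, with OL means of 57.8 CPM before injury and 175, 269 and 161 CPM on dpi 2, 10 and 42. In naive tissue Col1a2 was at 157% of its total RNA level, and the other markers of this list were at 0.955% to 36.4%. The part of astrocyte or fibroblast RNA in the changes of the chemokine genes in OL was not tested.

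**Figure D2:**
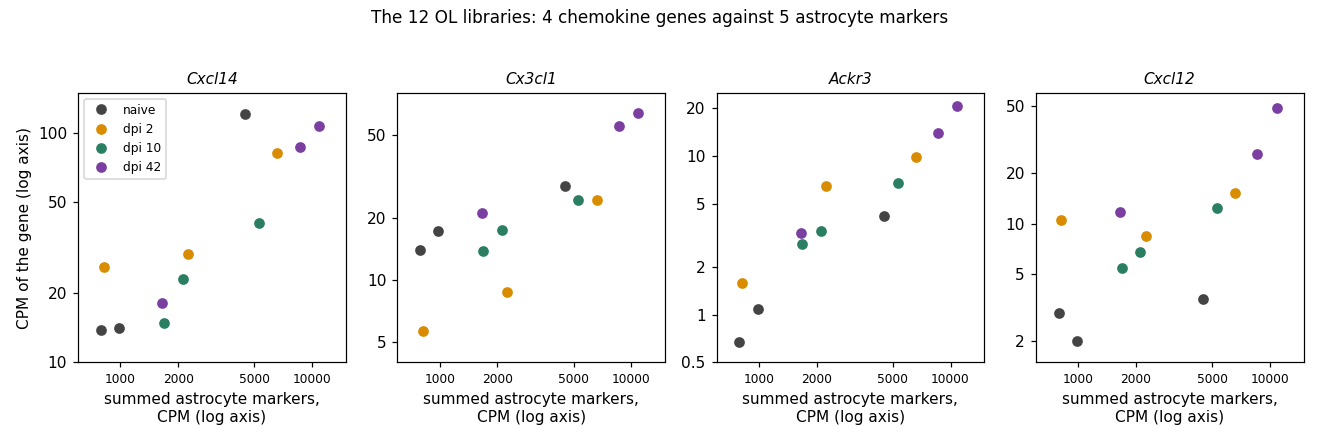
Level of Cxcl14, Cx3cl1, Ackr3 and Cxcl12 (CPM, log axis) against the summed level of 5 astrocyte markers (CPM, log axis), 1 point for each of the 12 OL libraries, colored by tissue group. Within each group the library or libraries with summed markers over 4000 CPM have the highest Cxcl14, from 40.6 to 121 CPM.

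The other CC ligands and Cxcl13 were called at few times or none. Ccl11, an eosinophil attractant, stood at 0.23, 0 and 0.38 CPM before injury, 3.95, 8.67 and 1.63 at dpi 2, 2.37, 3.49 and 1.95 at dpi 10 and 1.6, 1.59 and 1.31 at dpi 42 in total RNA and rose on dpi 2, 4.52 ± 1.58 (SE, q = 0.0299). This call was lost without any 1 of 4 libraries (q up to 0.115). In OL its call on dpi 42 rested on 1 library, 0, 0 and 1.45 CPM (q up to 1 without any 1 of 4 libraries). Ccl25, Ccl27a and Ccl28, ligands for lymphocytes of gut, thymus and skin, were called changed at no time. Ccl25 had 5.25, 6.51 and 5.99 CPM before injury, 6.24, 3.95 and 8.19 at dpi 2, 4.06, 4.67 and 4.04 at dpi 10 and 6.47, 4.88 and 3.76 at dpi 42 in total RNA. Its OL libraries held 2.9, 3.68 and 3.25 CPM before injury, 4.27, 5.59 and 3.29 at dpi 2, 3.03, 0.913 and 3.01 at dpi 10 and 7.38, 2.17 and 2.27 at dpi 42. For Ccl27a the total RNA levels were 10.8, 9.38 and 11 CPM before injury, 7.92, 5.77 and 7.32 at dpi 2, 6.2, 8.02 and 8.66 at dpi 10 and 9.16, 9.56 and 11 at dpi 42. Its levels overlapped between injured and naive libraries at dpi 42. The OL levels of Ccl27a were 1.13, 0.338 and 1.45 CPM before injury, 0.529, 0.851 and 2.87 at dpi 2, 0.117, 1.83 and 0.799 at dpi 10 and 4.68, 4.33 and 0.391 at dpi 42. Ccl28 averaged under 3 CPM in each group. Cxcl13, the B cell attractant, had no count in OL and was at least 9.59-fold and 5.17-fold higher in total RNA on dpi 10 and 42 than in naive tissue, where it had none. Its dpi 42 call was lost without any 1 of 3 libraries (q up to 0.0692). Ccl22 and Ccl24 reached 1 CPM without a called change, and Ccl1, Ccl17, Ccl19, Ccl26 and Xcl1 averaged under 1 CPM in all 8 groups, likewise without one in the fit of all 8 groups. With only the groups compared, total RNA was called higher for Ccl24 on dpi 2 (q = 0.0300), Ccl19 on dpi 10 (q = 0.0123), and Ccl22 (q = 0.0315) and Xcl1 (q = 0.0370) on dpi 42.

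Among the receptors, Ccr2 marks inflammatory monocytes and stood at 0.0984, 0.129 and 0.254 CPM before injury, 10.9, 12.6 and 6.02 at dpi 2, 6.53, 6.75 and 5.91 at dpi 10 and 2.26, 0.809 and 2.16 at dpi 42 in total RNA. OL values were 0, 0 and 0 CPM before injury, 1.89, 2.59 and 0 at dpi 2, 1.44, 0.495 and 1.29 at dpi 10 and 0, 0.523 and 0.939 at dpi 42. Its Log2FC in total RNA was 5.90 ± 1.2 (SE, q = 0.000641), 5.28 ± 1.18 (SE, q = 0.00173) and 3.41 ± 1.12 (SE, q = 0.0335) (the last lost without any 1 of 5 libraries, q up to 0.117), and in OL it was at least 12.2-fold, 8.77-fold and 3.97-fold higher (the last lost without dpi 42 OL library 3, q = 0.0543). Ccr1, the receptor of Ccl3, Ccl6 and Ccl9, had 0.0656, 0.322 and 0.57 CPM before injury, 14.4, 18.7 and 12.2 at dpi 2, 2.85, 3.34 and 3.56 at dpi 10 and 2.23, 0.659 and 2.45 at dpi 42 in total RNA. OL levels were 0, 0 and 0 CPM before injury, 1.21, 1.05 and 1.53 at dpi 2, 0.272, 0.038 and 0 at dpi 10 and 0, 0 and 0 at dpi 42. Its levels were highest on dpi 2 in both. The Log2FC of Ccr1 in total RNA was 5.54 ± 0.827 (SE, q = 4.46e-05), 3.33 ± 0.762 (SE, q = 0.00267) and 2.46 ± 0.746 (SE, q = 0.0244), and in OL it was called only on dpi 2, at least 10.3-fold higher. The dpi 42 call in total RNA was lost without any 1 of 4 libraries (q up to 0.096).

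Among receptors of neutrophils and lymphocytes, Cxcr2, Cxcr3, Cxcr6 and Ccr7 were called in total RNA at 1 time each and not in OL. Further calls came with only the groups compared, Cxcr2 on dpi 10 (q = 0.000347) and Cxcr3 (q = 0.0386) and Cxcr6 (q = 0.0225) on dpi 42. Cxcr2, the neutrophil receptor, stood at 0.164, 0.129 and 0 CPM before injury, 3.81, 2.72 and 2 at dpi 2, 1.45, 2.39 and 1.32 at dpi 10 and 0.343, 0.33 and 0 at dpi 42 in total RNA and rose on dpi 2, 4.81 ± 1.65 (SE, q = 0.0277). This call was lost without any 1 of 5 libraries (q up to 0.0959). On dpi 10 Cxcr3, Cxcr6 and Ccr7, receptors of T and dendritic cells, were at least 13.4-fold, 6.94-fold and 8.13-fold higher than naive, each lost without single libraries (q up to 0.131, 0.0998 and 0.0875). Ccr3, Ccr9, Ccr10, Cxcr1 and Cxcr5 averaged under 1 CPM in all 8 groups and were not called changed after SCI. In total RNA 8 neutrophil markers summed to 1.14 to 4.03 CPM before injury, 15.7 to 34.1 at dpi 2, 19.2 to 32.1 at dpi 10 and 14.4 to 17.7 at dpi 42. For 8 lymphoid markers the sums were 0.285 to 0.613, 0.333 to 0.897, 3.44 to 5.55 and 2.25 to 5.09 CPM. The part of neutrophil and lymphoid RNA in these changes was not tested.

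Of the atypical receptors, Ackr1, which carries chemokines across venules, stood at 27, 26.8 and 29.1 CPM before injury, 21.1, 38.4 and 31.2 at dpi 2, 18.7, 23.1 and 21.4 at dpi 10 and 20.1, 33.8 and 19.8 at dpi 42 in total RNA. OL levels were 2.48, 2.92 and 3.82 CPM before injury, 0.983, 5.23 and 6.31 at dpi 2, 4.43, 2.63 and 2.82 at dpi 10 and 5.21, 8.47 and 5.91 at dpi 42. It was not called changed at any time. Exons of Cadm3 on the same strand cover 25.7% of its exon length, so its counts are uncertain. Ackr2, a scavenger of CC ligands, averaged under 1 CPM in all groups. Ackr4, a scavenger of Ccl19, Ccl21 and Ccl25, lies at chr9:104084157-104126933 and had 30, 20 and 36 counts before injury, 34, 40 and 66 at dpi 2, 32, 18 and 30 at dpi 10 and 11, 34 and 19 at dpi 42 in total RNA. In OL it had 8, 20 and 26 counts before injury, 0, 0 and 0 at dpi 2, 3, 1 and 11 at dpi 10 and 0, 11 and 8 at dpi 42. All 3 dpi 2 OL libraries were at 0, and Ackr4 was at least 6.23-fold lower in OL on dpi 2 than in naive tissue. Exons of Acad11 on the opposite strand cover 8.9% of its exon length.

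OL enrichment compares OL with total RNA of the same tissue group. No member was OL enriched in naive tissue (21.7% of all genes were), on dpi 2 (20.5%) or on dpi 42 (21.1%), where edgeR gave 0 members at an unadjusted p under 0.05 and DESeq2 called 0 each time. With only the groups compared, 1 member, Ccl22, was OL enriched in naive tissue (1.99, q = 0.0156), at 1.68, 1.69 and 0.65 CPM in OL and 0.393, 0.355 and 0.254 CPM in total RNA. On dpi 10 (21.2% of all genes) the 1 enriched member was Ackr2, at 0.466, 0 and 0.228 CPM in OL and 0 in total RNA, a call lost with tissue pools as blocks (q = 0.200) and without any 1 of 5 libraries (q up to 0.0919). OL depleted were 13 members in naive tissue (28.6% of all genes), 26 on dpi 2 (27.2%), 24 on dpi 10 (27.3%) and 22 on dpi 42 (27.0%). With the tissue pool as a block, 12, 21, 20 and 13 were depleted, beside 27.2%, 25.2%, 24.9% and 24.9% of all genes. The genes OL depleted in all 4 tissue groups included Ackr1, Ccl3, Ccl6, Ccl9, Ccr1, Cx3cl1, Cxcl12, Cxcl16 and Cxcr4. Ccl6 and Cxcr4 lost this call in naive tissue, and Cxcl12 on dpi 42, with only the groups compared.

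**Figure D3:**
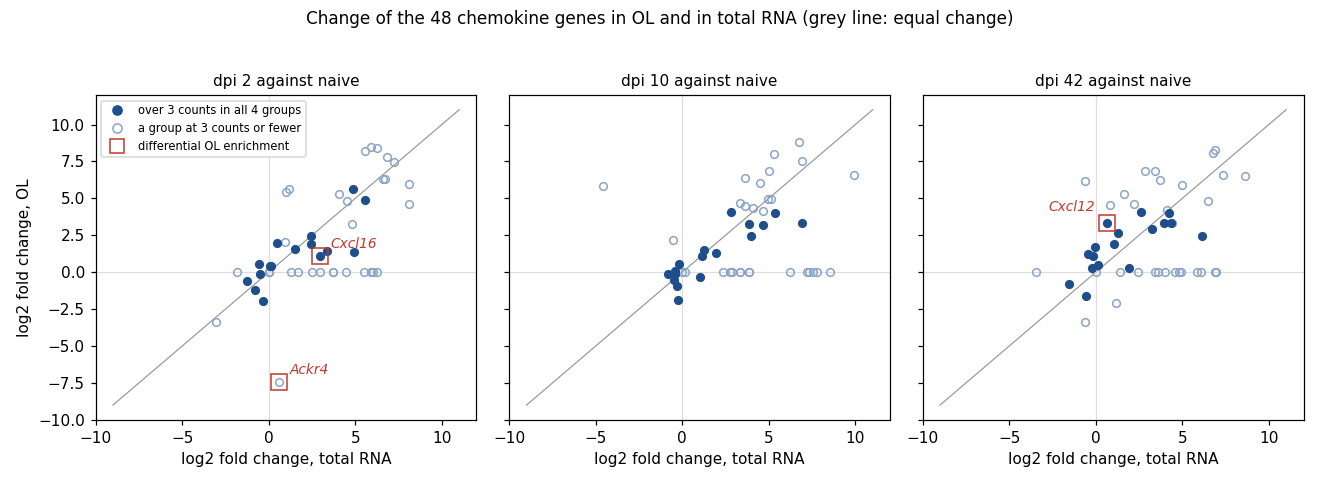
Log2FC against naive tissue in OL (vertical axis) and in total RNA (horizontal axis) on dpi 2, 10 and 42, 1 point for each of the 48 genes, with filled points for genes over 3 counts in all 4 groups compared, open points for the rest and a gray line for equal change. Red squares mark genes with a called differential OL enrichment, Cxcl16 and Ackr4 below the line on dpi 2 and Cxcl12 above it on dpi 42.

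The level in OL as a percent of that in total RNA was compared with myeloid markers, taking members with at least 5 CPM in total RNA. Among members that rose in total RNA, the median was 7.88% on dpi 2 (12 genes), 9.87% on dpi 10 (12 genes) and 11.2% on dpi 42 (7 genes), and the 8 myeloid markers had medians of 7.43%, 6.78% and 7.53%. The highest myeloid marker stood at 13.4%, 17.6% and 19.1%. At or below it were 9 of 12, 10 of 12 and 5 of 7 members. The members that had not risen in total RNA had medians of 20.9%, 15.6% and 39.0%, and 1 of 7, 3 of 5 and 1 of 8 of them were at or below the highest myeloid marker. This split follows the calls of the 8-group fit. With only the groups compared, members counted here as not risen were called higher, among them Ackr3 at each time. Ackr3 stood at 31.6%, 29.2% and 78.0% on dpi 2, 10 and 42. Of the members risen in the 8-group fit, Ccl4, Ccr2 and Cxcr4 were above the highest myeloid marker on dpi 2. Ccl5 and Cxcl10 were above it on dpi 10, and Cxcl10 and Cxcr4 on dpi 42. Cxcl10 on dpi 42 was at 66.6% and Cxcr4 on dpi 2 at 29.2%. Markers of other cells than OLs also stood above the myeloid ones. The 5 astrocyte markers were at 36.2% to 94.7%, 29.1% to 82.1% and 54.3% to 139% on dpi 2, 10 and 42. The 6 fibroblast and pericyte markers were at 3.76% to 105%, 4.90% to 43.1% and 4.14% to 72.8%. A level above the myeloid markers thus does not set a member apart from all markers of other cells. The part of myeloid, astrocyte or fibroblast RNA in the OL levels was not tested.

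**Figure D4:**
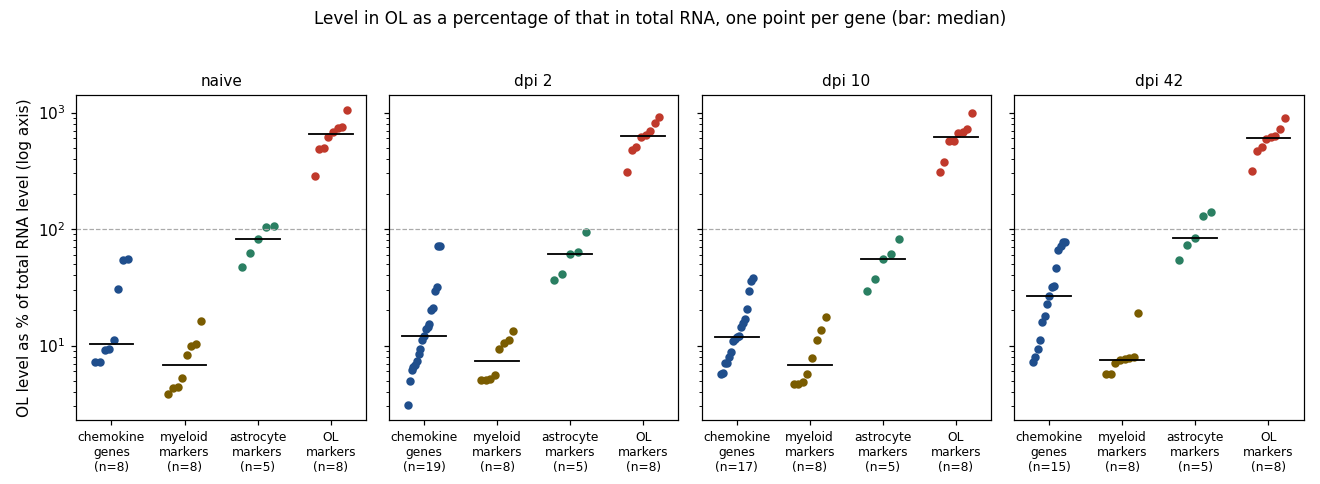
Level in OL as a percent of that in total RNA (log axis), 1 point per gene with a bar at the median, for chemokine genes with at least 5 CPM in total RNA and for myeloid, astrocyte and OL markers, in naive tissue and on dpi 2, 10 and 42. The dashed line marks equal levels, and the medians of the chemokine genes are 10.3%, 12.1%, 11.9% and 26.6%, below those of the OL markers in each panel.

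Differential OL enrichment asks whether injury changed OL more or less than total RNA, as the interaction of the 2 factors. On dpi 2 no member had a higher OL enrichment (3.35% of all genes had; edgeR gave 1 at an unadjusted p under 0.05 and DESeq2 called 1, Cxcl12), and 2 had a lower one, Cxcl16 and Ackr4 (2.92% of all genes). On dpi 10 there was no higher member (1.48% of all genes; 1 at an unadjusted p under 0.05 in edgeR and 0 in DESeq2) and no lower one (1.43%; 3 and 1, Cxcl16). On dpi 42 Cxcl12 was the 1 member with a higher OL enrichment (1.56% of all genes), and there was no lower one (1.42%; 1 at an unadjusted p under 0.05 in edgeR and 0 in DESeq2).

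On dpi 42 the Log2FC of Cxcl12 was 3.33 in OL and 0.65 in total RNA, a difference of 2.68 ± 0.555 (SE, q = 0.00449). With tissue pools as blocks, whose pairing is unsure on dpi 42, it was 2.51, q = 0.0294. Without the 2 libraries with conflicting labels it was 1.88, q = 0.0326. Without dpi 42 OL library 1 alone it was 1.92, q = 0.0252. Without the 5 OL libraries highest in astrocyte markers, with 1 dpi 42 OL library left, it was 1.47. Cxcl16 on dpi 2 differed by -1.86 ± 0.605 (SE, q = 0.0433), and the call was lost with tissue pools as blocks (-1.81, q = 0.116) and without any 1 of 10 libraries (q up to 0.124). For Ackr4 on dpi 2 the difference had q = 0.00681, and with pools as blocks q = 0.0635. Of members that changed in OL, Cxcl12 (dpi 42, higher) and Ackr4 (dpi 2, lower) passed a 2-arm filtration like that of the study, which asks for a like differential OL enrichment or for OL enrichment past 1 in both groups. In the study the libraries of a tissue sample were treated as pairs in this step, and with tissue pools as blocks Cxcl12 passed and Ackr4 did not. Cxcl12 also passed on dpi 2 with DESeq2, the tool of the study (1.54, q = 0.0283), and with only the groups compared (1.53, q = 0.0314). Of all genes called higher in OL, 20.7%, 10.2% and 13.6% passed on dpi 2, 10 and 42, and of those lower, 25.4%, 13.8% and 17.7%.

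Later times were also compared with dpi 2. In OL, 4 members were higher on dpi 10 than on dpi 2 (4.35% of all genes), Ackr4, Cxcl9, Cxcl10 and Cxcl16, and 4 were lower (3.00%), Ccl2, Ccl6, Ccr1 and Cxcl2. On dpi 42, 5 were higher (3.68%), Ackr4, Cx3cl1, Cxcl9, Cxcl12 and Cxcl16, and Ccr1 was lower (2.73%). In total RNA Cxcl16 and Cxcr4 were higher on dpi 10 than on dpi 2 (1.07% of all genes) and Ccl6 and Ccl9 lower (0.967%). On dpi 42 Cxcl16 was higher (0.874%) and Ccl2, Ccl9 and Ccr1 were lower (1.73%). Cxcl16 was 1.73 ± 0.35 (SE, q = 0.0028) in total RNA and 2.10 ± 0.398 (SE, q = 0.000554) in OL on dpi 10 against dpi 2. Ccr1 was -3.08 ± 0.722 (SE, q = 0.0104) in total RNA on dpi 42 against dpi 2. This call was lost without dpi 2 total RNA library 2 or dpi 42 total RNA library 2 (q up to 0.0584). With only the groups compared, Cxcl16 was the 1 member called in OL at each of these times, 0 were lower, and in total RNA 7 were higher (2.86% of all genes) and 7 lower (2.67%) on dpi 10 and 1 higher (1.91%) and 11 lower (3.65%) on dpi 42. Other calls were lost without single libraries. In OL on dpi 10 against dpi 2 these were Ackr4 (q up to 0.0791), Cxcl9 (0.0949), Cxcl10 (0.197), Ccl2 (0.137), Ccl6 (0.184) and Cxcl2 (0.233). On dpi 42 against dpi 2 in OL they were Cxcl9 (q up to 0.107) and Cxcl12 (0.18). In total RNA they were Ccl6 (q up to 0.252), Ccl9 (0.12) and Cxcr4 (0.101) on dpi 10, and Ccl9 (0.0689) and Cxcl16 (0.0693) on dpi 42.

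Genes that act with these ligands and receptors were taken from lists chosen by function. Of all genes, 10.0%, 9.20% and 6.66% rose in total RNA on dpi 2, 10 and 42 and 10.2%, 6.82% and 8.54% in OL, which is the background of the counts that follow. Of 31 genes of chemokine receptor signaling, 13, 14 and 14 rose in total RNA on dpi 2, 10 and 42 and 11, 12 and 11 rose in OL, among them the leukocyte genes Rac2, Vav1 and Dock2. Ptk2b, a kinase downstream of these receptors, had a lower differential OL enrichment at all 3 times, -2.49 ± 0.318 (SE, q = 2.42e-05) on dpi 2. Of 7 proteases that process chemokines, 3, 5 and 3 rose in total RNA and 0, 2 and 1 in OL. Adam17, which sheds Cx3cl1 and Cxcl16, had a lower differential OL enrichment at all 3 times, -1.87 ± 0.193 (SE, q = 6.58e-06) on dpi 42. Of 12 transcription factors of chemokine induction, 5, 8 and 5 rose in total RNA and 4, 3 and 3 in OL, with the interferon regulatory factors Irf1, Irf7 and Irf8 rising in both at every time. Of 5 family genes outside the naming rule (Pf4, Ppbp, Xcr1, Ccrl2 and Cx3cr1, the receptor of Cx3cl1), 3, 4 and 2 rose in total RNA and 2, 2 and 1 in OL, with Cx3cr1 rising at each time in both.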

How the data were processed

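Total and anti-HA precipitated polyA RNA was sequenced from 3 pools per tissue group. The authors deposited raw counts per gene, made from reads aligned with STAR to mm10 and counted with HTSeq. The submitters' processing notes name FastQC 0.10.1 and HTSeq 0.10.0, and the strand setting of the counting is not given in the sources used here. The study's methods excluded genes with fewer than 10 counts and used DESeq2.

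Here, the 17167 of 21965 genes that reached 10 counts over all libraries were fitted with edgeR 4.0.16 (R 4.3.3), TMM scaling and 1 model of 8 groups, using the quasi-likelihood test with Benjamini-Hochberg adjustment. Injury was compared in OL and in total RNA, OL with total RNA in each tissue group, and their interaction was tested. Gene positions are from GENCODE M21. The method was also run on simulated counts. Changes were set there only in genes above a minimum mean level, so the simulation does not cover calls with a group at the floor. Replicates are separate pools of mice, and counts limit precision: 3 counts is the floor, for counting error only. Members and lists were chosen with earlier results of these data known. Genes named with full values are those with at least 5 CPM in a group, and those with a called differential OL enrichment. The values of 1 such gene and of the Schwann cell marker list are not reported here, but the gene is in all counts and medians.

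Libraries of 1 pool come from the same tissue. Deviations from group means correlated within pools at 0.0408 to 0.137 in naive tissue, 0.0879 to 0.108 on dpi 2, 0.0245 to 0.0630 on dpi 10 and -0.0109 to 0.0200 on dpi 42. Between pools the values were -0.105 to 0.0502, -0.0781 to -0.0184, -0.0365 to 0.0117 and -0.0280 to 0.0253. OL against total RNA was also fitted with the pool as a block. On dpi 42 the values within pools lay inside the range between pools, so the pairing is unsure there. Other alternatives were DESeq2 1.42.0, other scalings and filters, only the groups compared, and libraries left out.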

Additional observations from a re-analysis of the deposited data

Results flagged for a closer look

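For 3 genes the effect of injury in OL differed from that in total RNA by the test of the difference itself, an interaction term in edgeR's quasi-likelihood test. On the log2 scale the injury effect in OL minus that in total RNA was 2.68 for Cxcl12 on dpi 42 (q = 0.00449), -1.86 for Cxcl16 on dpi 2 (q = 0.0433) and -8.02 for Ackr4 on dpi 2 (q = 0.00681). The fitted value of Ackr4 depends on the prior count, since all dpi 2 OL libraries were at 0. With tissue pools as blocks the call of Cxcl12 was kept (2.51, q = 0.0294), and those of Cxcl16 (-1.81, q = 0.116) and Ackr4 (q = 0.0635) were lost. The pairing by pool is unsure on dpi 42. The value of Cxcl12 was smaller without dpi 42 OL library 1 (1.92, q = 0.0252). Without the 5 OL libraries highest in astrocyte markers it was 1.47.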

How the results depend on the processing

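The counts of members moved as follows, each given with the count of the 8-group fit in parentheses, and the cause was not tested. With only the groups compared, OL depleted were 14 in naive (13), 20 on dpi 2 (26), 31 on dpi 10 (24) and 15 on dpi 42 (22). Higher in total RNA were 22 on dpi 2 (20), 28 on dpi 10 (22) and 24 on dpi 42 (17). With only the groups compared in the fit there were 1 OL enriched in naive (0), 0 OL enriched on dpi 10 (1), 8 higher in OL on dpi 2 (13), 7 higher in OL on dpi 10 (13), 7 higher in OL on dpi 42 (16), 1 higher differential OL enrichment on dpi 2 (0), 1 lower differential OL enrichment on dpi 2 (2), 1 higher in OL on dpi 10 against dpi 2 (4), 0 lower in OL on dpi 10 against dpi 2 (4), 1 higher in OL on dpi 42 against dpi 2 (5), 0 lower in OL on dpi 42 against dpi 2 (1), 7 higher in total RNA on dpi 10 against dpi 2 (2), 7 lower in total RNA on dpi 10 against dpi 2 (2), 11 lower in total RNA on dpi 42 against dpi 2 (3) and 1 higher in the filtration on dpi 2 (0). With DESeq2 there were 0 OL enriched on dpi 10 (1), 1 higher differential OL enrichment on dpi 2 (0), 1 lower differential OL enrichment on dpi 10 (0), 4 lower in OL on dpi 42 against dpi 2 (1), 4 lower in total RNA on dpi 10 against dpi 2 (2), 5 lower in total RNA on dpi 42 against dpi 2 (3) and 1 higher in the filtration on dpi 2 (0). With the tissue pool as a replicate block there were 0 OL enriched on dpi 10 (1), 13 OL depleted on dpi 42 (22), 0 lower differential OL enrichment on dpi 2 (2) and 0 lower in the filtration on dpi 2 (1). With the replicate number as a block in naive, dpi 2 and dpi 10 libraries there were 1 lower in OL on dpi 10 against dpi 2 (4) and 1 lower in total RNA on dpi 10 against dpi 2 (2). With library sizes alone there were 0 lower in total RNA on dpi 2 (1) and 2 lower in OL on dpi 42 against dpi 2 (1). With the filterByExpr filter there were 2 lower in OL on dpi 42 against dpi 2 (1). Without the 2 dpi 42 libraries with conflicting labels there were 1 higher differential OL enrichment on dpi 2 (0) and 1 higher in the filtration on dpi 2 (0). Without both libraries of dpi 2 pool 2 there were 1 lower differential OL enrichment on dpi 2 (2), 2 higher differential OL enrichment on dpi 42 (1), 1 higher in OL on dpi 10 against dpi 2 (4), 1 lower in OL on dpi 10 against dpi 2 (4), 2 higher in OL on dpi 42 against dpi 2 (5), 1 higher in total RNA on dpi 10 against dpi 2 (2), 0 lower in total RNA on dpi 10 against dpi 2 (2), 1 lower in total RNA on dpi 42 against dpi 2 (3) and 2 higher in the filtration on dpi 42 (1). Without the 5 OL libraries highest in astrocyte markers, an alternative chosen after seeing the data, there were 3 lower in OL on dpi 2 (1), 2 higher differential OL enrichment on dpi 2 (0), 1 lower differential OL enrichment on dpi 10 (0), 2 lower in OL on dpi 10 against dpi 2 (4), 6 higher in total RNA on dpi 10 against dpi 2 (2), 5 lower in total RNA on dpi 10 against dpi 2 (2), 2 higher in total RNA on dpi 42 against dpi 2 (1), 9 lower in total RNA on dpi 42 against dpi 2 (3), 1 higher in the filtration on dpi 2 (0) and 2 lower in the filtration on dpi 2 (1). Leaving out 1 library in turn gave 0 to 1 OL enriched on dpi 10 (1), 17 to 26 OL depleted on dpi 10 (24), 20 to 27 OL depleted on dpi 2 (26), 15 to 25 OL depleted on dpi 42 (22), 10 to 14 OL depleted in naive (13), 2 to 4 higher in OL on dpi 10 against dpi 2 (4), 1 to 4 lower in OL on dpi 10 against dpi 2 (4), 9 to 13 higher in OL on dpi 10 (13), 11 to 14 higher in OL on dpi 2 (13), 1 to 3 lower in OL on dpi 2 (1), 3 to 6 higher in OL on dpi 42 against dpi 2 (5), 1 to 3 lower in OL on dpi 42 against dpi 2 (1), 11 to 18 higher in OL on dpi 42 (16), 1 to 3 higher in total RNA on dpi 10 against dpi 2 (2), 0 to 4 lower in total RNA on dpi 10 against dpi 2 (2), 18 to 24 higher in total RNA on dpi 10 (22), 15 to 21 higher in total RNA on dpi 2 (20), 0 to 1 lower in total RNA on dpi 2 (1), 0 to 1 higher in total RNA on dpi 42 against dpi 2 (1), 1 to 5 lower in total RNA on dpi 42 against dpi 2 (3), 11 to 18 higher in total RNA on dpi 42 (17), 0 to 1 higher in the filtration on dpi 2 (0), 1 to 2 lower in the filtration on dpi 2 (1), 1 to 2 higher in the filtration on dpi 42 (1), 0 to 1 higher differential OL enrichment on dpi 10 (0), 0 to 1 lower differential OL enrichment on dpi 10 (0), 0 to 1 higher differential OL enrichment on dpi 2 (0), 1 to 3 lower differential OL enrichment on dpi 2 (2), 1 to 2 higher differential OL enrichment on dpi 42 (1) and 0 to 1 lower differential OL enrichment on dpi 42 (0). Of 215 values called for single genes or printed with them, none reversed in any alternative. None was lost with DESeq2 size factors, the naive library as TMM reference, filterByExpr or without a filter, 1 with library sizes alone, 10 of 214 with DESeq2, 52 with only the groups compared, 26 of 89 with the pool block and 10 of 82 with the number block. Without dpi 2 pool 2, 31 were lost, without the conflicting libraries 16 and without the 5 OL libraries 23. Library sizes alone moved the median Log2FC of all genes for OL against total RNA by -0.57 to -0.50 and the injury effect in total RNA by 0.11 to 0.20. The naive library as TMM reference moved it by -0.23 to -0.22 for differential OL enrichment, by -0.13 to 0.12 for OL against total RNA and by 0.09 to 0.13 for injury in total RNA. The replicate numbers share only a number: deviations of same-numbered libraries of different groups correlated at -0.143 to 0.248 in OL and -0.0452 to 0.0451 in total RNA. The block by replicate number left out dpi 42, where labels conflict, while the block by tissue pool included it. Where a group was at 3 counts or fewer, depth allowed only a lower bound of the fold.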
